A study of Mus musculus with 6 samples.

Results

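Aminoacyl-tRNA synthetases are the enzymes that join each amino acid to its transfer RNA. The cytosolic enzymes supply the ribosomes that translate nuclear messages, and a second set, also encoded in the nucleus, is imported to supply the ribosomes inside mitochondria. Several cytosolic enzymes sit together in a multisynthetase complex held by scaffold proteins. The genes of many cytosolic synthetases are known targets of ATF4, a transcription factor made when amino acids run short. Activated T cells make protein at a high rate and therefore need charged transfer RNA.

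The synthetases were chosen by name, and 36 were listed, 20 cytosolic and 16 mitochondrial. Of these, 34 had a probe set that the array annotation assigns to that gene alone, 18 cytosolic and 16 mitochondrial, out of 22180 such genes on the array. Aars and Dars had no such probe set and were not analysed here. The methionyl enzyme is written Mars1 in the annotation. Glycyl- and lysyl-tRNA synthetase, encoded by Gars and Kars, serve both the cytosol and the mitochondria and are counted with the cytosolic enzymes.

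Levels were measured on 6 Affymetrix Mouse Gene 2.0 ST arrays, 3 of icilin-treated and 3 of vehicle-treated CD4+ T cells. The icilin group received 100 µM icilin, a synthetic cooling compound that opens the channels TRPM8 and TRPA1, for 24 h, and the vehicle group received its solvent DMSO for the same 24 h. All cells came from the spleens of female wild-type C57BL/6 mice of about 8 weeks, and all had first been stimulated for 24 h with antibodies to CD3 and CD28, at 10 µg/mL each. The design text names 3 mice as the source of both groups, without saying which arrays share a mouse.

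Array medians lay between 4.24 and 4.30 on the log2 scale, and log2 fold changes had standard errors with a median of 0.091, so the number of arrays limits the precision. The 6 measured CD4+ T cell markers (Cd3d, Cd3e, Cd3g, Cd4, Thy1 and Cd5) did not pass the test. Their median log2 values were 10.92 to 10.98 on icilin and 10.88 to 10.96 on vehicle arrays. Thy1 (-0.12) and Cd5 (-0.135) lay below vehicle on every icilin array, as did 10.5% of all genes, and the other 4 overlapped. In a fit with an intensity trend and robust variances 1 of the 6 fell, when 5.32% of all genes did. Of 20 measured markers of CD8 T, B, myeloid, natural killer, red and platelet cells, 1 rose, the B cell gene Ms4a1 (1.01). Their summed linear signal was 444 to 470 on icilin arrays and 400 to 421 on vehicle arrays, above vehicle on every icilin array. Its part in the results below was not tested. The median of their log2 values overlapped, at 3.77 to 3.98 on icilin and 3.79 to 3.98 on vehicle arrays. The brightest of the 20, Cd8b1, differed by 0.39 (limma adjusted p = 0.167), and Cd8a by 0.01. In bulk RNA, fewer cells of a type and less RNA per cell cannot be told apart.

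Promoter windows are shown for 3 of the cytosolic genes because ATF4 and its partners are known to bind C/EBP-ATF response elements, whose core can be written TGATGNAA. The windows come from RefSeq (build GRCm38.p6) and give the 250 bases before the annotated start, 5′ to 3′ on the strand of the gene, with matches to this motif on either strand in capitals. Gars (chr6:55037751-55038000, plus strand) and Tars (chr15:11399659-11399908, minus strand) hold a match there. Eprs (chr1:185362794-185363043, plus strand), whose transcript rose with icilin, holds none.
Gars: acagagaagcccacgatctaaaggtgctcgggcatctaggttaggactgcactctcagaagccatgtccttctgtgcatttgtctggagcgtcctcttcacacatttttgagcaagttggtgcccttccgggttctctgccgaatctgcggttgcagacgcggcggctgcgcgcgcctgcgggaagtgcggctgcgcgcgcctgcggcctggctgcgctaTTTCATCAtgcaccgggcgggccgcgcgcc
Tars: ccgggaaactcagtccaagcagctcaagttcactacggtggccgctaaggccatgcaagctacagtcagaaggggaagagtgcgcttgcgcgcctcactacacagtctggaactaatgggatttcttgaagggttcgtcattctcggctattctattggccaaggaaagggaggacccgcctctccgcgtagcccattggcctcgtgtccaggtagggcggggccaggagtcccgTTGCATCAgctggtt
Eprs: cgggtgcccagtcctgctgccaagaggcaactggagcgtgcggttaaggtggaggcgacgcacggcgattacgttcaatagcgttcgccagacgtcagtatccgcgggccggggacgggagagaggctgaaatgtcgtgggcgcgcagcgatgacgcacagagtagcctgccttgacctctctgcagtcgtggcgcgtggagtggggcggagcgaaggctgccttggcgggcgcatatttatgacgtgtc

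A window of 250 bases before and 50 bases after the start was used for 11 of the 18 measured cytosolic and 14 of the 16 measured mitochondrial genes. Windows on chromosome 18 were not used for the synthetases, and the set of all windows was not limited in this way. TGATGNAA, read on both strands, occurred in 4 of these 11 cytosolic genes (36.4%) and in 0 of the 14 mitochondrial genes. Of all 32851 promoter windows 3.97% held it. A gene was counted if any of its windows matched, so the shares of genes and of windows are unlike measures. The match in Gars lay 30 to 23 bases before the start and that in Tars 15 to 8 bases before it. In Iars and Yars it lay after the start, at bases 8 to 15 and 4 to 11. The 4 genes with a match differed between icilin and vehicle by 0.23 (Tars), 0.19 (Gars), 0.18 (Yars) and 0.05 (Iars) on the log2 scale, and none of them passed the test described next. Of the genes that did pass, Eprs alone had a window that was used. The motif was not looked for in Cars, Lars and Wars, so the match cannot be set against the calls. A second motif, CACGTG, is the E-box that MYC and related factors bind. It was found in 3 of the 11 cytosolic genes (Farsb, Iars and Tars) and in 1 of the 14 mitochondrial genes (Ears2), and in 7.15% of all windows. No other motif was searched for, and the 2 motifs do not overlap in these windows.

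With icilin, 4 of the 18 measured cytosolic synthetase genes rose and 0 fell, at a limma adjusted p under 0.1 over all 22180 genes. They were Cars, Eprs, Lars and Wars, the genes of the cysteinyl-, glutamyl-prolyl-, leucyl- and tryptophanyl-tRNA synthetases, and their rises were 1.20- to 1.25-fold. The 4 are 22.2% of the cytosolic genes, and 2.27% of all genes rose by the same rule, while 3.0% fell. Of the 4200 genes at least as bright as the dimmest cytosolic synthetase, 4.38% rose. No synthetase reached the limits of the study, which add a change of at least 1.5-fold to the adjusted p, and 1.4% of all genes did.

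Cars (probe set 17498271) had log2 levels of 8.73, 8.82 and 8.81 on the icilin arrays, against 8.54, 8.38 and 8.49 on the vehicle arrays. Every icilin array lay above every vehicle array, and the log2 fold change was 0.32 ± 0.07 (SE; adjusted p = 0.0664). Cysteine, the amino acid this enzyme attaches, is also the precursor of glutathione.

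For Eprs (probe set 17220548), whose single product charges both glutamate and proline, levels were 10.53, 10.57 and 10.52 with icilin and 10.29, 10.19 and 10.20 with vehicle. The groups did not overlap, and the log2 fold change was 0.31 ± 0.06 (adjusted p = 0.0485). Lars (probe set 17354036), whose product is also known as a leucine sensor upstream of mTORC1, stood at 9.77, 9.74 and 9.74 with icilin and at 9.49, 9.45 and 9.40 with vehicle. Here too all icilin arrays were the higher ones, with a log2 fold change of 0.31 ± 0.06 (adjusted p = 0.0470).

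Wars (probe set 17283930), which is also an interferon-inducible gene, had levels of 9.83, 9.85 and 9.81 on the icilin arrays and 9.52, 9.60 and 9.57 on the vehicle arrays. The gap between the groups was wider than the spread within either, and the log2 fold change was 0.26 ± 0.06 (adjusted p = 0.0746).

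**Figure D1:**
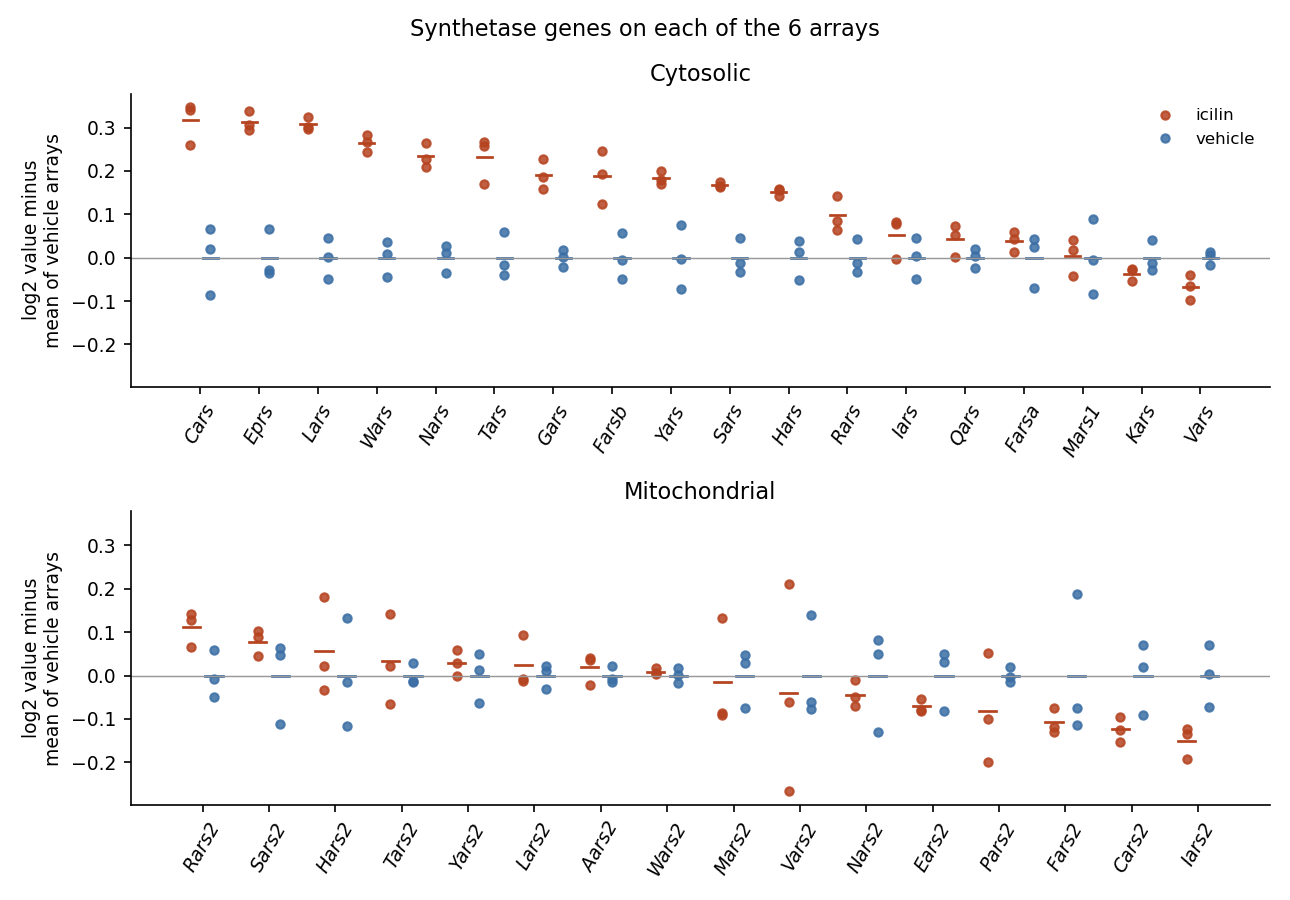
Log2 value on each array minus the mean of the 3 vehicle arrays of the same gene, for 18 cytosolic (top) and 16 mitochondrial (bottom) synthetase genes, with icilin arrays to the left of vehicle arrays and a short line at each group mean. In 12 cytosolic genes and 1 mitochondrial gene all icilin points lie above all vehicle points. That holds for 13.6% of all genes and 30.3% of those at least as bright as the dimmest cytosolic synthetase. In 1 cytosolic and 2 mitochondrial genes all icilin points lie below, against 10.5% of all genes.

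These calls changed with the number of arrays and with the model. Without any 1 of the icilin arrays 0 cytosolic synthetases passed, when 0.893% to 0.938% of all genes rose, against 2.27% with every array. The count was also 0 without vehicle replicate 2 (0.879% of all genes rose) or 3 (1.03%). Without vehicle replicate 1 (1.56%) Cars, Eprs and Lars passed. The log2 fold changes of the 4 genes stayed between 0.24 and 0.35. With the replicate number as a block in the fit, 0 passed, when 0.794% of all genes rose. With an intensity trend and robust variances 11 passed, all higher, when 6.49% of all genes rose, and the same 11 passed when genes dimmer than the median were left out (12.8% of the genes tested rose).

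The remaining 14 cytosolic genes did not pass, and their log2 fold changes ran from -0.07 to 0.23. The largest was that of Nars, for asparagine, at 0.23 ± 0.06 (adjusted p = 0.104), followed by Tars, for threonine, at 0.23 ± 0.07 (adjusted p = 0.133). Farsb, the beta subunit of the phenylalanyl enzyme, stood at 0.19, Yars, for tyrosine, at 0.18, Sars, for serine, at 0.17 and Hars, for histidine, at 0.15. In each of these 6 genes, and in Gars and Rars, the icilin arrays lay above all vehicle arrays. Such separation was found in 12 of the 18 cytosolic genes (66.7%), against 13.6% of all genes and 30.3% of the genes at least as bright as the dimmest cytosolic synthetase. Vars, for valine, lay below vehicle on every icilin array (-0.07 ± 0.06, adjusted p = 0.622), a pattern seen in 10.5% of all genes.

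The 2 genes that serve both compartments had different values. Gars had levels of 11.14, 11.10 and 11.07 with icilin and 10.89, 10.93 and 10.92 with vehicle, a log2 fold change of 0.19 ± 0.06 (adjusted p = 0.168). Kars had levels of 10.34, 10.32 and 10.35 with icilin and 10.34, 10.41 and 10.36 with vehicle, a log2 fold change of -0.04 ± 0.06 (adjusted p = 0.806). The groups were separate for Gars and overlapped for Kars, and the 95% interval was 0.05 to 0.33 for Gars and -0.18 to 0.10 for Kars.

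Across the 18 cytosolic genes the median log2 fold change was 0.18, a 1.13-fold difference, with 16 values above 0 and 2 below. Over all genes the median was 0.01 and 53.0% of values were above 0. Among the 4200 genes at least as bright as the dimmest cytosolic synthetase the median was 0.04 and 61.4% of values were above 0. Relative to the vehicle mean, the mean of the 18 genes was 0.154, 0.149 and 0.144 on the icilin arrays and 0.002, -0.002 and 0.000 on the vehicle arrays. No test was made of this mean, since the genes were chosen as a list.

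Members of the multisynthetase complex were unlike each other. Of 7 measured enzymes of the complex, Eprs and Lars rose, and the other 5 ranged from -0.04 for Kars to 0.10 for Rars, the arginyl enzyme. Between them lay Mars1, the methionyl enzyme whose transfer RNA starts every protein, at 0.00 (95% interval -0.16 to 0.17), Qars, for glutamine, at 0.04 (-0.10 to 0.18) and Iars, for isoleucine, at 0.05 (-0.10 to 0.20). The median of the 7 was 0.05, against 0.19 for the 11 cytosolic genes outside the complex, of which Cars and Wars rose. The share that rose was 28.6% in the complex and 18.2% outside it, against 2.27% of all genes. Icilin arrays lay entirely above vehicle in 3 of the 7 and in 9 of the 11. That held for 13.6% of all genes and 30.3% of those at least as bright as the dimmest cytosolic synthetase. The difference between these 2 sets was not tested. The 2 subunits of the phenylalanyl enzyme also had unlike values, 0.19 ± 0.07 for Farsb and 0.04 ± 0.06 for Farsa, with overlapping intervals (0.03 to 0.35 and -0.11 to 0.19).

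Synthetases fall into 2 structurally unrelated classes by the fold of the catalytic domain. Of 9 measured cytosolic class I genes 3 rose (Cars, Lars and Wars), with a median of 0.10, and of 8 class II genes 0 rose by limma, with a median of 0.18 and 6 at an unadjusted p under 0.05. Eprs carries a domain of each class and was left out of both counts. Of all genes, 2.27% rose by that rule and 9.09% were higher at an unadjusted p under 0.05. SAM called 0 class II and 2 class I genes, when 2.06% of all genes rose. With the intensity trend 6 class II and 4 class I genes rose, when 6.49% of all genes did. As many rose with dim genes left out, when 12.8% of the genes tested did. With median centring 2 class II genes rose, and with quantile normalization 1, beside 3 of class I in both cases. Of all genes, 3.09% rose with median centring and 2.24% with quantile normalization. The gap between the classes did not hold across these settings.

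**Figure D2:**
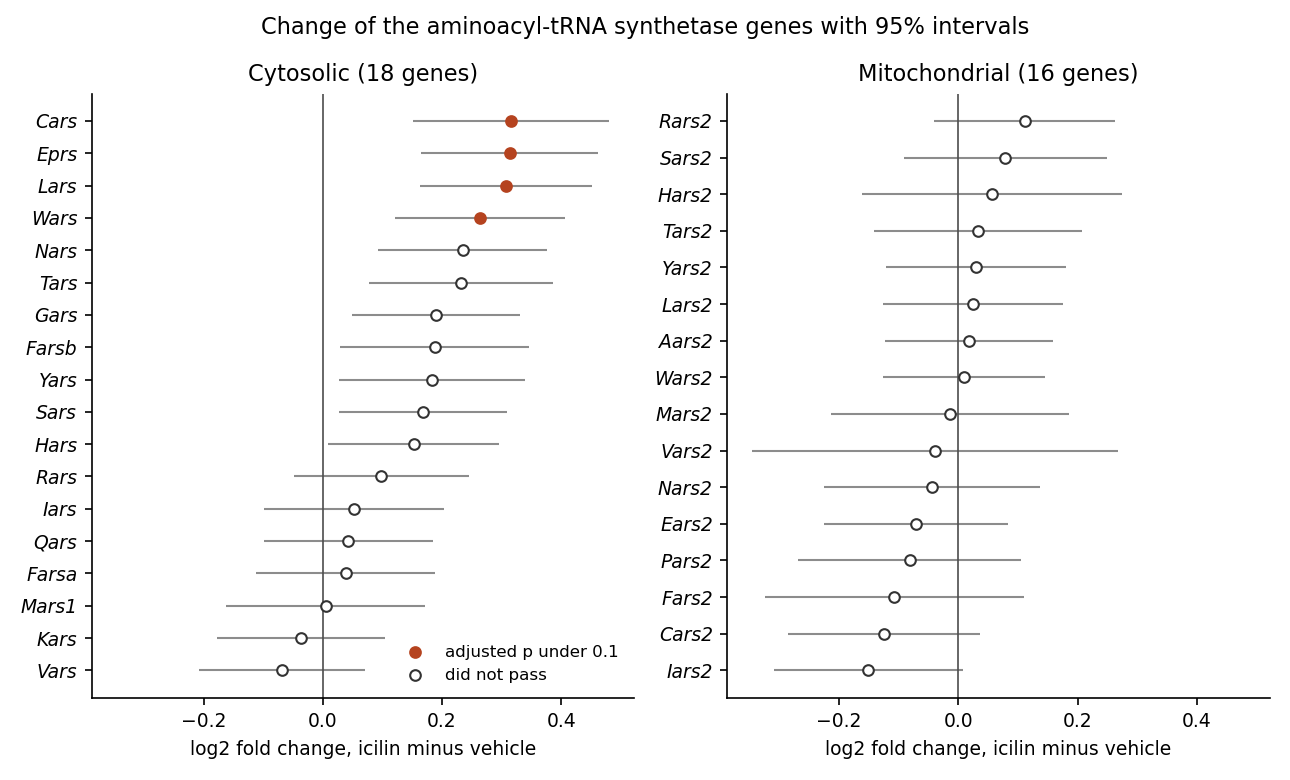
Log2 fold change (icilin minus vehicle) with its 95% interval for each measured synthetase gene, cytosolic on the left and mitochondrial on the right, with filled points for genes that passed at an adjusted p under 0.1. Cytosolic values run from -0.07 to 0.32 and 4 pass, and mitochondrial values run from -0.15 to 0.11 and none passes.

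None of the 16 mitochondrial synthetase genes passed, by limma or by SAM, and 0 had an unadjusted p under 0.05, while 11 cytosolic genes did, all higher. At the adjusted limit 2.27% of all genes rose and 3.0% fell, so a list of this length with no call there is near that background. By the unadjusted limit 9.09% of all genes were higher with icilin and 8.05% were lower, larger shares than the 0 of 16. Of the 9056 genes at least as bright as the dimmest mitochondrial synthetase, 394 rose and 487 fell at the adjusted limit. At the unadjusted limit 1379 of these were higher and 1014 lower. Their log2 fold changes ran from -0.15 to 0.11, with 8 above 0 and 8 below and a median of -0.003. The mean of the 16 genes relative to the vehicle mean was -0.03, -0.05 and 0.03 on the icilin arrays and -0.02, -0.01 and 0.03 on the vehicle arrays, which overlap. Standard errors were 0.06 to 0.13 here and 0.06 to 0.07 among the cytosolic genes. Every mitochondrial gene was brighter than the median gene of the array. Their brightness percentiles were 59.2 to 86.5, against 81.1 to 99.4 for the cytosolic genes.

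Iars2, the mitochondrial isoleucyl enzyme, had the smallest p. Its levels were 7.98, 8.04 and 8.05 with icilin, against 8.10, 8.25 and 8.18 with vehicle. All icilin arrays lay below all vehicle arrays, with a log2 fold change of -0.15 ± 0.07 (adjusted p = 0.313). Cars2, for cysteine, was the other gene with this pattern (-0.12, adjusted p = 0.419), and Rars2, for arginine, was the gene with all icilin arrays above vehicle (0.11, adjusted p = 0.445). In the other 13 the groups overlapped. Of all genes, 10.5% lay below vehicle on every icilin array and 13.6% lay above. Of the 9056 genes at least as bright as the dimmest mitochondrial synthetase, 1429 lay below and 2241 (24.7%) above. The widest interval was that of Vars2, for valine, at -0.35 to 0.27, and the narrowest that of Wars2, for tryptophan, at -0.13 to 0.15.

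The same amino acid could be compared between compartments in 12 cases, where each compartment has a listed and measured enzyme encoded by a single gene. This leaves out phenylalanine, with its 2 cytosolic subunits, and glutamate and proline, which share Eprs. Tarsl2, a threonyl-tRNA synthetase gene outside the list, was not part of the threonine pair. The log2 fold change of the cytosolic gene exceeded that of its mitochondrial partner in 10 of 12 pairs, by a median of 0.18 over all pairs. To test each pair, the cytosolic minus the mitochondrial log2 value was taken on each array and compared between icilin and vehicle arrays. With 3 arrays a group, 0.1 is the smallest p that an exact two-sided permutation test can reach. By that exact permutation test 6 pairs had p = 0.1, each with a larger difference on every icilin array. This p is reached whenever the groups do not overlap, so it adds nothing to the separation. The share of other gene pairs with such separation was not counted, so the 6 pairs cannot be set against a background. Among single genes, icilin arrays lay above all vehicle arrays in 13.6% of all genes. The share was 30.3% of those at least as bright as the dimmest cytosolic synthetase.

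Cysteine was the amino acid with the widest pair, since Cars exceeded Cars2 by 1.13, 1.27 and 1.24 log2 units on the icilin arrays and by 0.82, 0.78 and 0.72 on the vehicle arrays, a shift of 0.44. The other 5 separated pairs were those for leucine (0.28), asparagine (0.28), tryptophan (0.26), isoleucine (0.20) and tyrosine (0.15). Threonine (0.20), histidine (0.10), serine (0.09) and methionine (0.02) had overlapping groups. For arginine (-0.01) and valine (-0.03) the mitochondrial gene had the larger value, also with overlap. The isoleucine shift came with a value near 0 for the cytosolic gene (0.05) and the lowest value among the mitochondrial ones (-0.15).

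**Figure D3:**
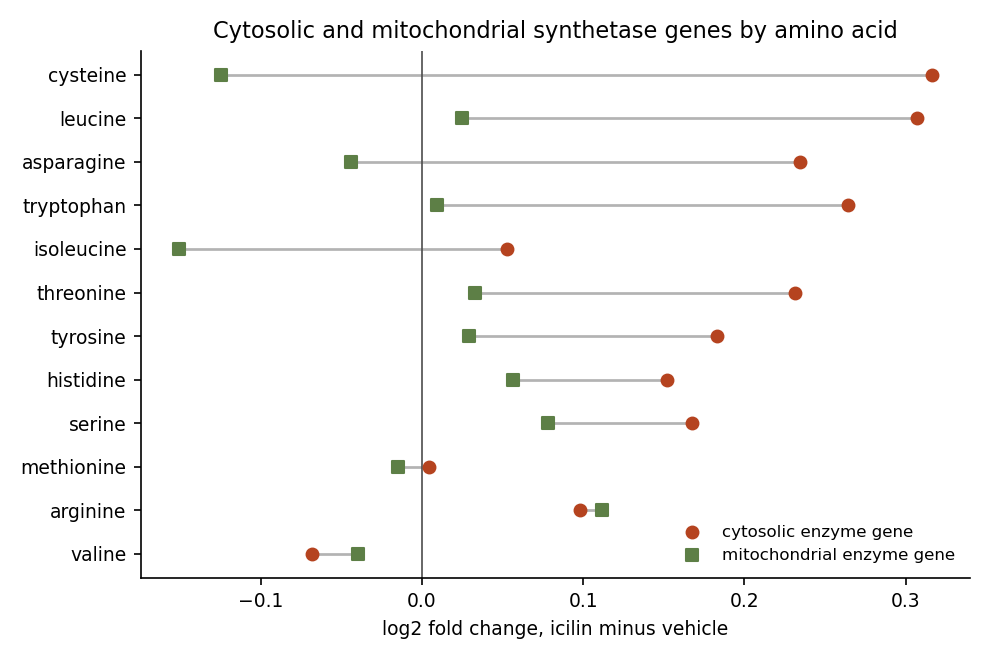
Log2 fold change (icilin minus vehicle) of the cytosolic gene (circle) and the mitochondrial gene (square) for the 12 amino acids with a measured gene of each kind, ordered by the gap between them. The circle lies to the right of the square in 10 of the 12 rows.

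Other genes of the transfer RNA pathway were counted on 8 lists, with 81 of 91 genes measured. Of the 81, 10 rose (12.3%, against 2.27% of all genes), 0 fell (against 3.0%) and 71 did not pass, with a median of 0.13. None of the 10 reached 1.5-fold. With an array left out 1 to 4 of the 81 passed, when 0.879% to 1.56% of all genes rose. The count was 1 without icilin replicate 2 or 3 and 4 without vehicle replicate 1. With an intensity trend and robust variances 27 rose and 1 fell, when 6.49% of all genes rose and 5.32% fell.

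Among carriers and related enzymes, Xpot and Tarsl2 rose. Xpot, which encodes the exportin that carries transfer RNA out of the nucleus, had levels of 9.61, 9.54 and 9.55 with icilin and 9.23, 9.19 and 9.28 with vehicle (0.33 ± 0.06, adjusted p = 0.0399). Tarsl2, a further threonyl-tRNA synthetase gene that is not among the 36, had levels of 6.79, 6.70 and 6.83 with icilin and 6.42, 6.56 and 6.46 with vehicle (0.30 ± 0.07, adjusted p = 0.0822). The groups did not overlap in either gene. Both measured scaffold genes of the multisynthetase complex did not pass, with Aimp1 at 0.13 and Eef1e1 at 0.07.

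Of 16 end processing and splicing genes, Rpp40, a protein subunit of RNase P, rose by 0.55 ± 0.07 (adjusted p = 0.0102) and Tsen15, a subunit of the splicing endonuclease, by 0.38 ± 0.08 (adjusted p = 0.0522). Of 29 modification genes 4 rose, among them the methyltransferase genes Trmt61a (0.46 ± 0.09, adjusted p = 0.0403), Mettl1 (0.36 ± 0.08, adjusted p = 0.0756) and Trdmt1 (0.33 ± 0.06, adjusted p = 0.0455). The fourth, named after its value was seen, was Thg1l, which adds a guanine to histidine transfer RNA (0.28). Among 18 genes of RNA polymerase III and its factors, the subunit genes Polr3e (0.29 ± 0.07, adjusted p = 0.0718) and Polr3d (0.26 ± 0.06, adjusted p = 0.0932) rose.

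The remaining lists had 0 calls by limma as fitted here and by SAM, but some with other settings. Among 4 genes that amidate or formylate charged mitochondrial transfer RNA, Qrsl1 had the smallest p (0.29 ± 0.09, adjusted p = 0.165), and 1 gene was higher at an unadjusted p under 0.05. Among 4 genes of the selenocysteine pathway it was the kinase gene Pstk (0.35 ± 0.11, adjusted p = 0.155), also 1 gene at an unadjusted p under 0.05. Among 3 proofreading genes it was the deacylase gene Dtd1 (0.15 ± 0.06, adjusted p = 0.293), with 0 at an unadjusted p under 0.05, as for the 2 scaffold genes. Qrsl1 and Pstk passed with the intensity trend (adjusted p = 0.059 and 0.0485), a setting in which 6.49% of all genes rose. With dim genes left out Qrsl1 (0.0492), Pstk (0.0477) and Dtd1 (0.0976) passed, against a rise in 12.8% of those tested. For the unadjusted limit, the share on the higher side was 9.09% over the whole array. Whether these short lists exceed such shares was not tested.

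Of 9 measured genes of the amino acid response 7 rose (77.8%, against 2.27% of all genes), with Trib3 (1.00), Chac1 (0.77) and Cebpb (0.76) the largest. The other 2, Eif2ak4 (-0.10, limma adjusted p = 0.646) and Eif2ak3 (-0.13, limma adjusted p = 0.4), did not pass. Eif2ak3 lay below vehicle on every icilin array, as did 10.5% of all genes. Atf4 itself, named after its values were seen, had levels of 9.89, 9.92 and 9.89 with icilin and 9.57, 9.41 and 9.45 with vehicle, a log2 fold change of 0.43 ± 0.07 (adjusted p = 0.0215).

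**Figure D4:**
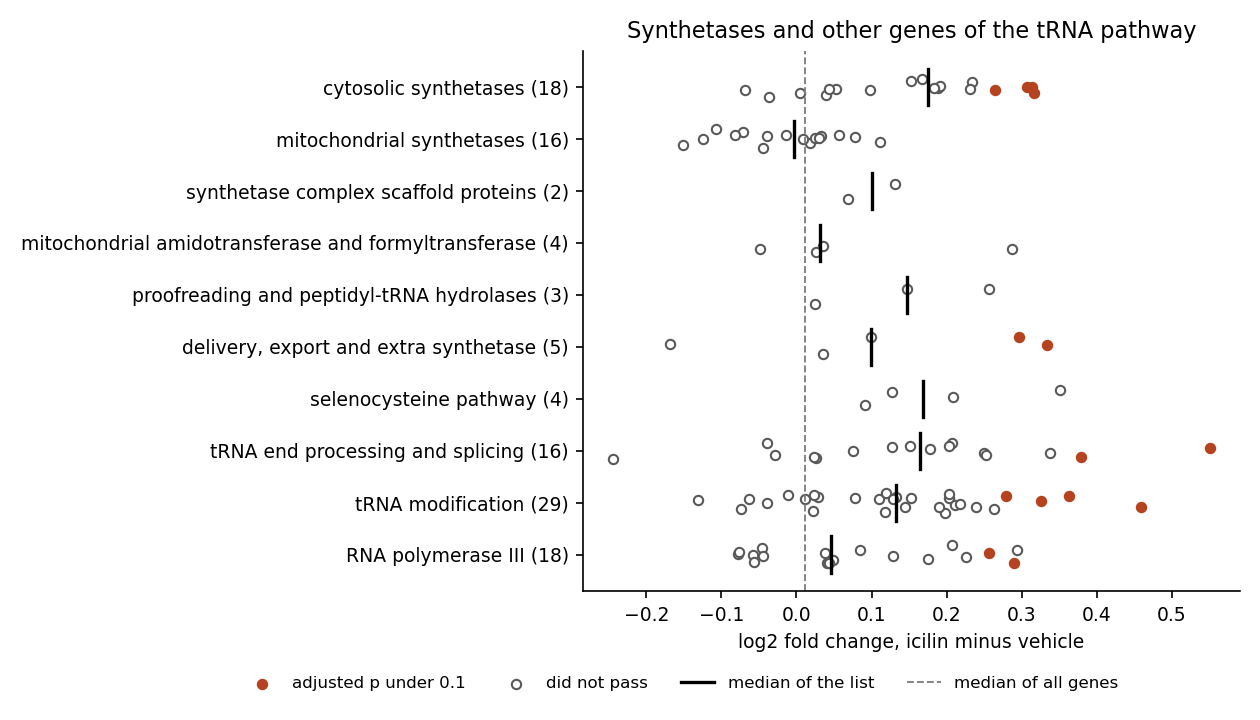
Log2 fold change (icilin minus vehicle) of each measured gene on the lists of cytosolic synthetases, mitochondrial synthetases and 8 lists of other transfer RNA genes, with the number of genes in brackets, filled points for genes at an adjusted p under 0.1, a bar at each list's median and a dashed line at the median of all genes. The list medians are 0.18 for cytosolic and -0.003 for mitochondrial synthetases, and the dashed line stands at 0.01.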

How the data were processed

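The deposited table holds log2 values of 41345 probe sets on 6 arrays that the authors made with RMA (background correction, normalization and probe summary), per the series design text; no step was redone, and RMA hides changes common to most genes. Each labelling used 0.25 µg of RNA, with a lowest accepted integrity number of 8. The array annotation gave 1 symbol to 23521 probe sets, and the brightest per gene was kept (22180 genes). The genome build of that annotation is not given in the sources used here.

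The limma package (3.58.1, in R 4.3.3) was used to fit every gene by lmFit and eBayes, with 3.07 prior and 4 residual degrees of freedom; tests of icilin minus vehicle were two-sided, with Benjamini-Hochberg adjustment over all genes. A gene passed at an adjusted p under 0.1, and the limits of the study add 1.5-fold. Each ± is a standard error from limma, and intervals are 95%. Alternatives were a replicate block, an intensity trend with robust variances, median centring, quantile normalization, dim genes left out, the mean of all probe sets, each array left out, SAM (the design text's test, written anew, 20 permutations) and an adjusted p under 0.05. Limma and SAM were tested on simulated data. Tables and figures used matplotlib 3.10.9, numpy 2.4.6, pandas 2.3.3 and Python 3.11.15.

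Every measured synthetase is a member. Levels on every array are given for members that passed, for the mitochondrial gene with the smallest p, and for Gars and Kars; of each other list, up to 3 passing genes with the largest change are named, or else the gene with the smallest p. On the 8 lists and those of amino acid response genes and markers, 1 symbol was matched through its gene ID. The members, lists, motifs and thresholds were chosen with earlier results of these data known.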

Additional observations from a re-analysis of the deposited data

How the results depend on the processing

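Of the 18 cytosolic synthetases, 4 passed, and 5 to 6 did with quantile normalization or median centring, 4 with the mean of all probe sets and 3 by SAM. The count was 11 with an intensity trend and robust variances and 11 with dim genes left out (fewer genes tested), 2 at an adjusted p under 0.05, and 0 to 3 with an array left out (fewer samples). Same-numbered arrays did not deviate together (correlations of deviations from the group means of -0.005, -0.014 and -0.022). With 3 arrays a group this cannot decide whether they share a mouse. With the replicate block 0 cytosolic genes passed. The mitochondrial count and the count at the study's limits were 0 under every alternative named in the processing. For the other transfer RNA genes, 10 of 81 passed; alternatives chosen after seeing the data gave 2 with the replicate block, 28 with the trend, 29 with dim genes left out, 6 by SAM, 4 at an adjusted p under 0.05 and 1 to 4 with an array left out. The cytosolic median, 0.18, was 0.20 with median centring (which moves the median of all genes to 0.04), 0.16 with quantile normalization and 0.16 to 0.18 with an array left out; the mitochondrial median ran from -0.01 to 0.02. Genes near 0 changed sign without passing: Mars1 stood at -0.023 with quantile normalization and Mars2 at 0.011 with median centring. With an array left out, Mars1 ran from -0.0375 to 0.0496, Mars2 from -0.0882 to 0.0233, Hars2 from -0.0057 to 0.122, Lars2 from -0.0097 to 0.0431, Tars2 from -0.0219 to 0.0821, Vars2 from -0.165 to 0.0746 and Yars2 from -0.0026 to 0.0549. Except where fewer genes or samples were used, the cause of these shifts was not tested. Wide intervals, such as that of Vars2, limit what single mitochondrial genes can show.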
